A study of Mus musculus with 12 samples.

Results

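The angiopoietins and the Tie receptors were measured by 4 genes of the mouse angiogenesis membrane: Angpt1 and Angpt2, the secreted ligands, and Tek and Tie1, the receptors. They were taken by name from the 100 genes of this membrane, each from its 1 spot, and are 4 of the 188 genes on the 2 array types of the study. The hypoxia membrane has 0 of them. The tissue was fracture callus, the repair tissue that forms around a broken bone, collected 7, 10 and 14 days after a fixed closed fracture of the femur. The mice were labelled HET or WT for HIF-1a, and the series title describes the mice as partly deficient in HIF-1alpha. The sources used here do not say how the allele was made, nor the strain, sex or age. RNA of 3 animals was pooled in equal amounts for each genotype and day, and 1 angiogenesis array was hybridised per pool. The 6 arrays therefore have no replicate, and a difference between HET and WT on 1 day has no test.

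Angpt1 (angiopoietin-1) is made mainly by mural and mesenchymal cells and activates Tek, also called Tie2, a receptor tyrosine kinase of endothelial cells and of some blood-forming cells. That signal keeps vessels quiescent and covered by pericytes. Angpt2 (angiopoietin-2) is made by endothelial cells, is induced by hypoxia and by remodelling, and in many settings blocks the action of Angpt1 on Tek. Tie1 is a related endothelial receptor that forms complexes with Tek and tunes its signal. In a callus, vessels grow into soft tissue and cartilage as these are replaced by bone.

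A gene was taken as above background on an array where its density, the scanner's linear brightness value, was higher than the brightest of the 6 control spots (PUC18 plasmid DNA or blank) of that array. At day 7 this held for 12% of the 100 genes on the array labelled HET and 9% on the WT array. It held for 91% and 76% at day 10, and for 44% and 79% at day 14. Hif1a, the gene named in the labels, had a density of 25140 on the array labelled HET and 8037 in WT at day 7. At day 10 it had 6924 in HET and 11449 in WT, and at day 14 it had 6574 in HET and 11008 in WT. The day 7 order goes against the label. On each day the median gene spot had the same order, with 163 in HET and 34.1 in WT at day 7. It had 589 in HET and 1738 in WT at day 10, and 168 and 1229 at day 14. After quantile normalization the HET minus WT difference of Hif1a was 0.35 log2 units at day 7, -0.19 at day 10 and 0.00 at day 14. The sources used here do not say where its probe lies, so the probe does not check the genotype. Of 10 bone and cartilage markers, Sparc and Spp1 are on the membrane, and Sparc was above background on all 6 arrays. Spp1 was below background on both day 7 arrays, at 251 on the array labelled HET and 61.3 in WT. Of 13 endothelial markers, 8 are on the membrane, Tek and Tie1 among them, and on the day 7 arrays 0 of the 8 were above background in HET or WT.

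None of the 4 genes was above background at day 7. Angpt1 had a density of 287 on the array labelled HET and 35.0 in WT, against brightest control spots of 312 and 241. Angpt2 had 166 on the array labelled HET and 15.6 in WT. Tek had 156 and Tie1 160 on the array labelled HET, and in WT they had 33.0 and 18.3. The array labelled HET was brighter at all 4 spots, and its control spots were brighter as well, with a median of 288 against 94.4 in WT. At day 10 the count above background was 4 of 4 in HET and 2 of 4 in WT, against 91% and 76% of all genes. At day 14 it was 2 of 4 in HET and 4 of 4 in WT, against 44% and 79%. Angpt1 and Tek passed on both genotypes' arrays at both later days, and each shared its pattern over the arrays with 29 of the 99 other genes. Angpt2 and Tie1 passed on the same arrays, HET at day 10 and WT at day 14. Each shared that pattern with 5 of the 99 other genes, so it is not particular to them.

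**Figure D1:**
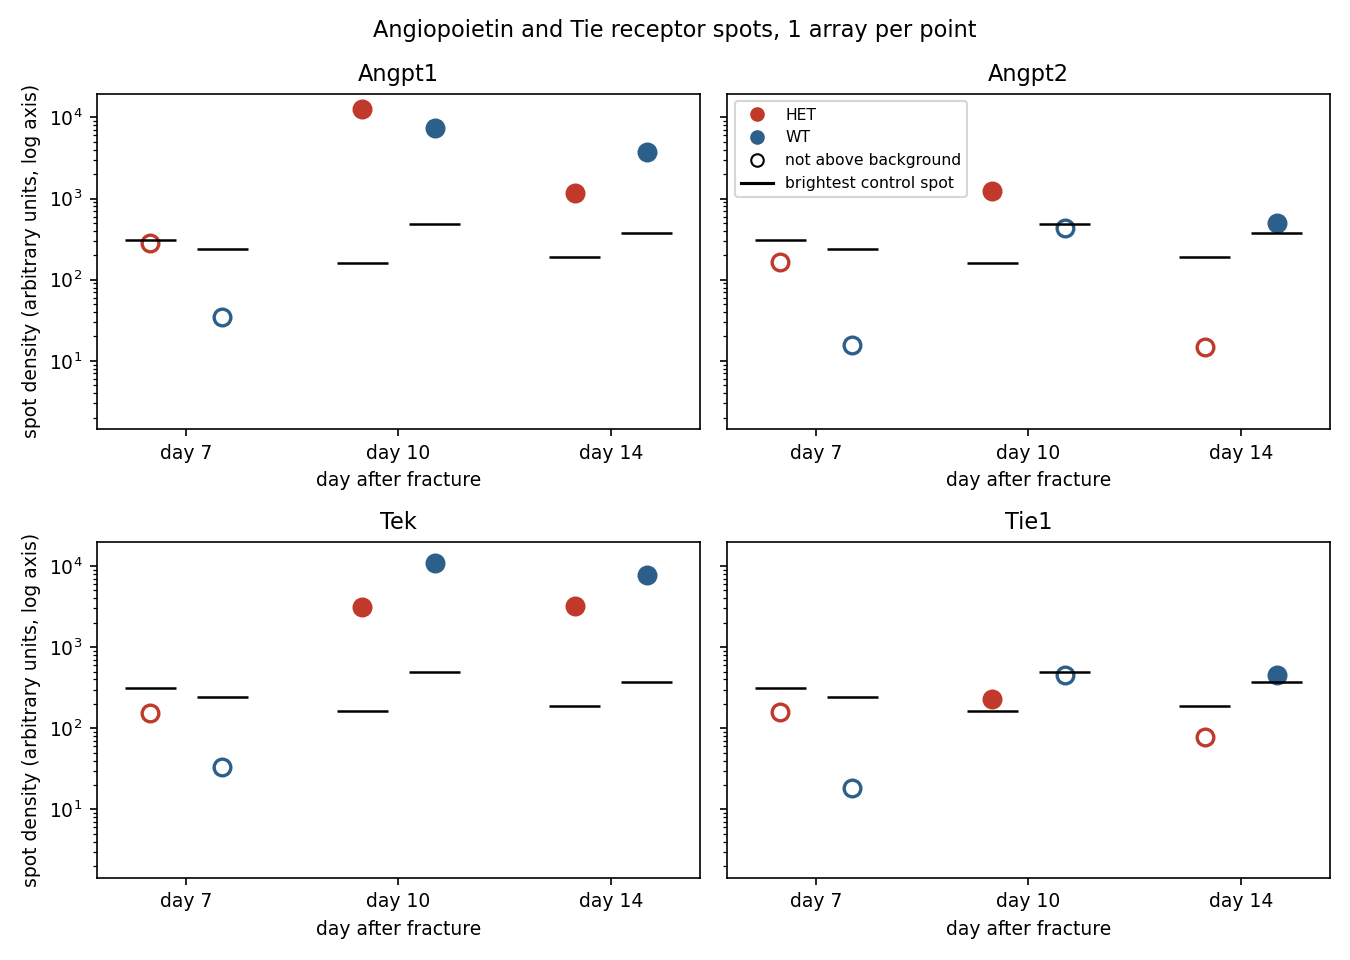
Spot density (log axis) of Angpt1, Angpt2, Tek and Tie1 by day after fracture, HET left of WT, 1 array per point. Black bars give the brightest control spot of the same array and open circles are spots that do not exceed it. All 8 points of day 7 are open, and at day 10 both angiopoietins are brighter in HET while Tek is brighter in WT.

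Among the ligands at day 10, Angpt1 had a density of 12802 in HET and 7489 in WT, and Angpt2 had 1230 in HET and 437 in WT. Both angiopoietins were thus brighter in HET, although the HET array as a whole was the dimmer one. Of the 67 genes above background on both day 10 arrays and not at the scanner's ceiling on both, 5 were higher in HET and 62 lower without normalization, with a median HET over WT density ratio of 0.430. In that order from the highest, Angpt1 had place 2, with a density ratio of 1.71. By rank within the array, Angpt1 was 17 of 100 in HET and 25 in WT. After quantile normalization Angpt1 was 1.11 log2 units higher in HET (2.16-fold). The WT density of Angpt2 lay below the brightest control spot of its array, 490, so its difference is a bound, at least 2.08 log2 units higher in HET (4.24-fold), and at least 1.31 without normalization between arrays (2.48-fold). That WT limit was set by 1 PUC18 spot, and the next control spot had 310.

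These sizes exceed the spread between repeat spots of the reference genes on the angiogenesis arrays, a pooled standard deviation of 0.28 log2 units over 15 sets of spots. That spread covers spots of 1 array and no variation between arrays or animals. It is the spread of 1 spot, and a difference of 2 spots varies more. The largest spread of a set was 0.55, and the reference gene Ppia had 0.55 on the WT array of day 10. Of the 3 members with a normalized difference at day 10, 2 were at least 1 log2 unit higher in HET, against 7.89% of the 76 genes with one, and 0 were at least 1 lower, against 13.2%. Without normalization 1 of 3 was at least 1 higher, against 2.82% of 71 genes, and 1 was at least 1 lower, against 63.4%. Angpt2 enters both counts as a bound, and a bound was kept only where it pointed to the array above background. Angpt2 therefore could not count as lower, and Tie1, above background only in HET but dimmer there, dropped out. The 76 and the 71 genes hold such bounds too, so no excess of members is read from the counts. The normalized and the unnormalized medians of the members were 1.11 and 0.77, and those of all genes with a difference were -0.09 and -1.45. Each members' median is the value of Angpt1, the middle of 3 with Angpt2 as a bound and Tie1 left out. No shift of the members as a set is read from it. In file order the Angpt2 spot lies between Angpt1 and the ribonuclease gene Rnase4, whose density was 34813 in HET and 45834 in WT at day 10. Light from a neighbouring spot was not tested.

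The receptor Tek had a density of 3123 in HET and 10955 in WT at day 10. It was thus dimmer in HET, opposite to the angiopoietins, and its HET over WT ratio of 0.285 had place 48 of 67 from the highest. After normalization Tek differed by -0.50 log2 units, with ranks of 25 in HET and 22 in WT, and without it by -1.83. Tie1 had 232 in HET and 449 in WT, so it was above background in HET, where the brightest control spot had 162, while its density was the lower one. No bound on its normalized difference could be given. Tie1 was therefore near the background limit on both arrays, and nothing further is read from it at this day.

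The 5′ ends of Tek and Tie1, endothelial receptor genes on the same chromosome, are shown as a description. Of the 4 members, these 2 had a window available. Tie1 lay near the background limit, so the windows are not set against the arrays on which either gene passed. The windows come from a RefSeq table (GRCm38.p6) of 250 bases before to 50 after a transcript start, and are printed 5′ to 3′ on the gene's strand. Capitals mark GGAA, the core that ETS factors bind, or TTCC, the same core on the other strand. The Tek window is chr4:94739039-94739338, plus strand, and that of Tie1 is chr4:118489800-118490099, minus strand. The annotated Tek gene begins at 94739086, inside its window, so most of that window lies within the gene, while the Tie1 gene starts at 118489849 on its strand.
Tek: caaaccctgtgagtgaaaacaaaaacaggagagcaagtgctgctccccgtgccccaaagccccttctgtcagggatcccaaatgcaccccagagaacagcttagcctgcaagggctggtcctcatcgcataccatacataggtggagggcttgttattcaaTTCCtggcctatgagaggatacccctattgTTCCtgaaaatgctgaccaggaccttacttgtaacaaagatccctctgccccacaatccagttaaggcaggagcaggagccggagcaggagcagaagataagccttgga
Tie1: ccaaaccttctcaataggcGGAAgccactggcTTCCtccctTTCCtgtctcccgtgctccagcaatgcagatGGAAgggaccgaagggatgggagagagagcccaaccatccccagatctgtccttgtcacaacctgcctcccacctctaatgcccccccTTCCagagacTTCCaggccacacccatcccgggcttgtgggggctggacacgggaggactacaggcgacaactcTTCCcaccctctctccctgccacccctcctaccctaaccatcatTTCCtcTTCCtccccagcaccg
The Tek window holds 2 such cores and the Tie1 window 9. Of 32851 promoter windows of the same length, 96% hold at least 1, 84.6% hold at least 2 and 1.59% hold at least 9. The HIF core, searched as ACGTG and GCGTG on both strands, has 0 matches in either window and is found in 43.8% of all windows. A match is a run of letters and not evidence of binding.

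**Figure D2:**
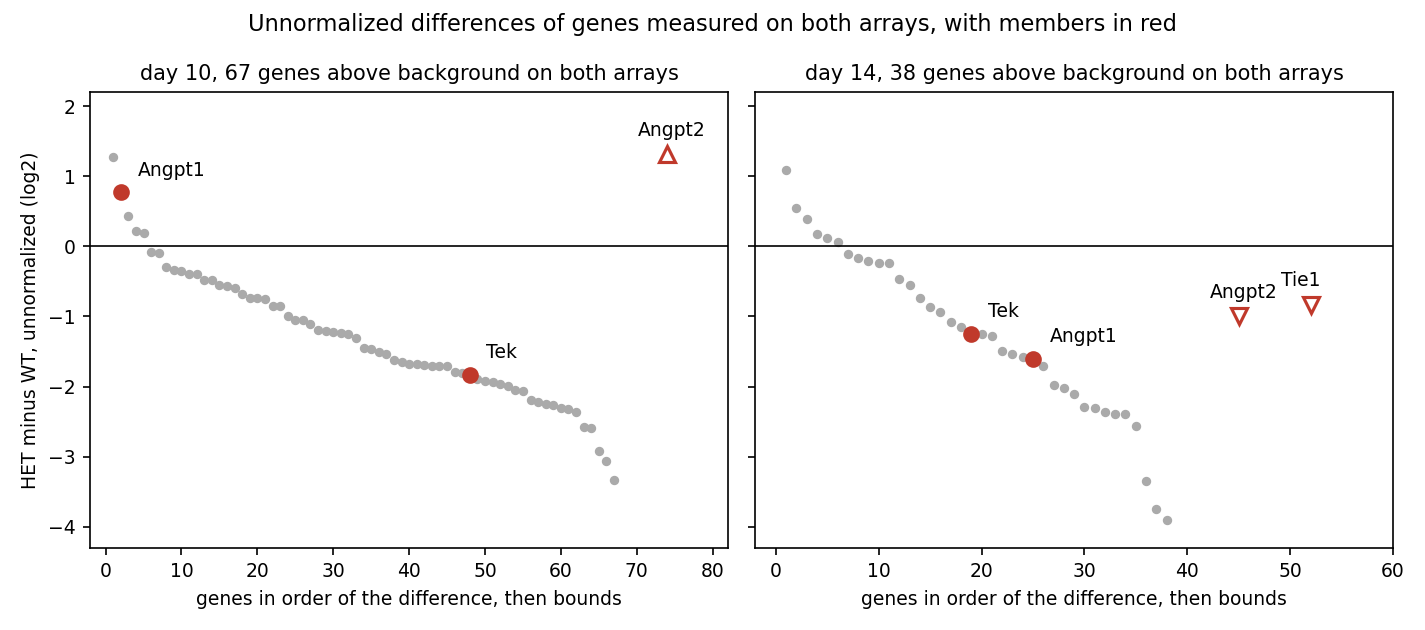
HET minus WT unnormalized log2 difference of each gene above background on both arrays and not at the ceiling on both, in order, at day 10 (67 genes) and day 14 (38 genes), with members in red and their bounds as open triangles at the right. At day 10 Angpt1, at 0.77, is near the upper end and the Angpt2 bound, at least 1.31, is above 0, while Tek is at -1.83. At day 14 Angpt1 and Tek lie in the middle of the order, and the bounds of Angpt2 and Tie1 are below 0.

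At day 14 all 4 members were dimmer in HET. Of the 38 genes above background on both arrays and not at the ceiling on both, 32 were lower in HET without normalization, with a median density ratio of 0.409. Angpt1 had a density of 1185 in HET and 3716 in WT, a ratio of 0.319. Tek had 3193 in HET and 7666 in WT, a ratio of 0.416. From the highest, Tek had place 19 and Angpt1 place 25 of the 38, so neither stood far from the median gene. After normalization Angpt1 differed by 0.00 log2 units, with rank 31 on both arrays, and Tek by -0.39. Without normalization they differed by -1.60 and -1.24. Angpt2 had 14.6 in HET, against 496 in WT, and was above background in WT only. Its normalized difference had no bound, and without normalization it was at -0.998 or lower. Tie1 had 78.9 in HET and 452 in WT, with an unnormalized bound of -0.84 or lower and no normalized one. In WT the 2 genes stood at 1.33 and 1.21 times the brightest control spot. At this day 0 of the 2 members with a normalized difference reached 1 log2 unit in either direction, against 8.7% higher and 13% lower of 46 genes. Without normalization 2 of 4, Angpt1 and Tek, were at least 1 lower, against 64.4% of 73 genes, and 0 were at least 1 higher, against 1.37%. The bounds of Angpt2 and Tie1 could only count as lower.

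**Figure D3:**
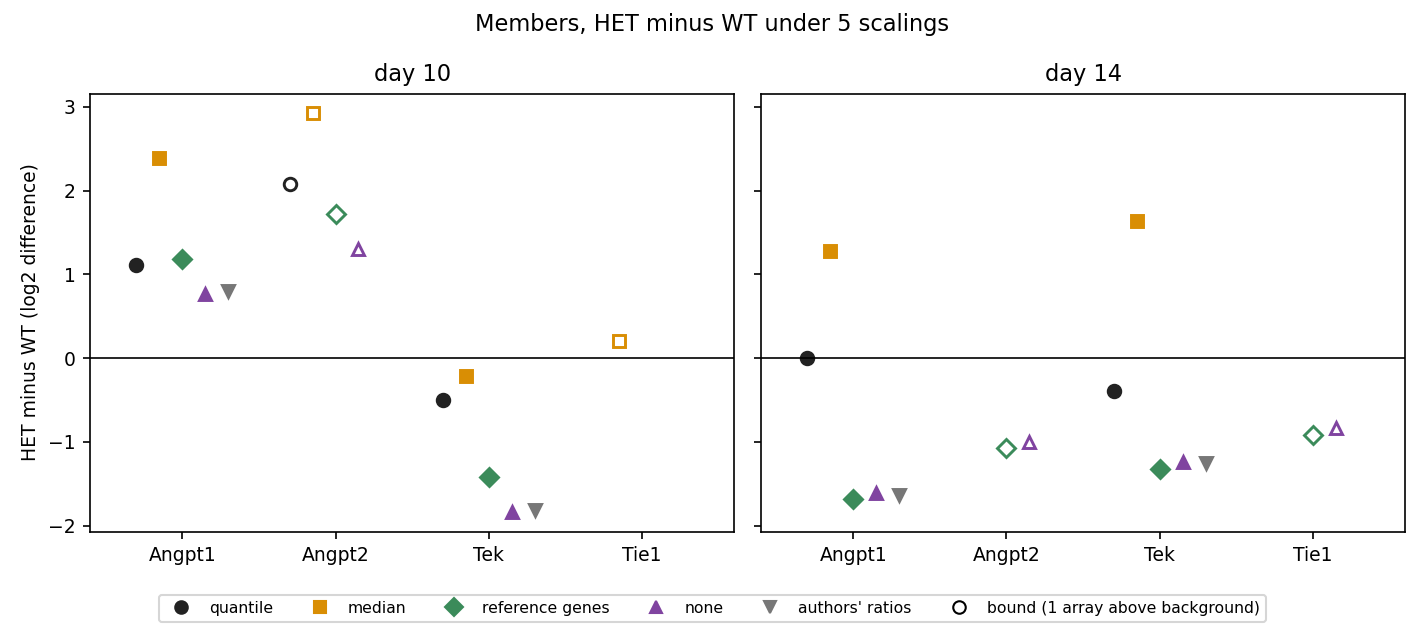
HET minus WT log2 difference of each member at day 10 and day 14 under quantile, median and reference gene scaling, with no scaling, and from the authors' ratios. Filled symbols are differences and open symbols are bounds. At day 10 every scaling with a value puts Angpt1 and Angpt2 above 0 and Tek below it, while at day 14 median scaling puts Angpt1 and Tek above 0 and the reference gene, unscaled and authors' values put them below.

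The Angpt2 to Angpt1 ratio of densities can be measured on the 2 arrays where both genes were above background. It was 0.0961 in HET at day 10 and 0.134 in WT at day 14. In WT at day 10 it was at most 0.0655, with the brightest control spot in place of Angpt2. On these densities the day 10 ratio was thus at least 1.47-fold higher in HET, or 0.55 log2 units. The spread of the Ppia spots on that WT array was also 0.55, and a comparison of several spots varies more than 1 spot. The bound is therefore not read as beyond spot variation. In HET at day 14 the ratio was at most 0.160, so at that day the order of HET and WT cannot be told. The probes differ in sequence and in yield, so a value of 0.0961 does not say how many Angpt2 transcripts there were per Angpt1 transcript. Only its change between arrays can be read, and this does not depend on a common scaling factor. With the median control density subtracted first, the ratio was 0.0883 in HET at day 10 and 0.0597 in WT at day 14, which turned the order of these 2 arrays. With the lowest spot subtracted it was 0.0906 in HET and 0.110 in WT, the order of the densities, and after quantile normalization the log2 ratio was -2.38 in HET and -2.46 in WT, the turned order. The order of these 2 arrays therefore depended on the processing.

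The ratio of Angpt1 to its receptor Tek, examined after the values had been seen, can be given on all 4 later arrays. At day 10 it was 4.10 in HET and 0.684 in WT, a log2 difference of 2.58. At day 14 it was 0.371 in HET and 0.485 in WT, a HET over WT fold of 0.766. The HET array of day 10 thus had the highest ratio of the 4. After quantile normalization the HET minus WT difference of the log2 ratio was 1.61 at day 10 and 0.39 at day 14.

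**Figure D4:**
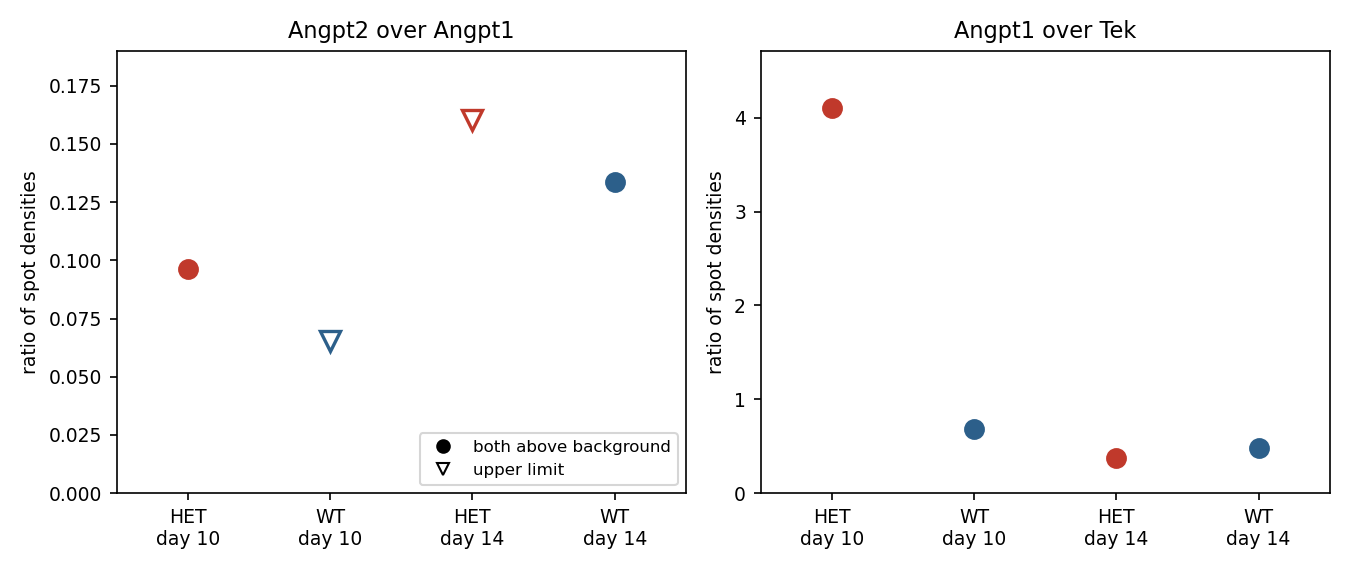
Ratio of spot densities of Angpt2 over Angpt1 and of Angpt1 over Tek on the arrays of days 10 and 14, HET left of WT at each day, 1 array per symbol. Filled circles have both genes above background and open triangles are upper limits. The Angpt1 over Tek ratio is 4.10 in HET at day 10 and between 0.371 and 0.684 on the other 3 arrays.

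Over time the members had different courses. The day 10 minus day 7 differences are bounds, since all day 7 spots were below background. Without normalization Angpt1 was at least 5.54 log2 units higher at day 10 in HET and at least 4.14 in WT. Tek was at least 3.49 higher in HET and 4.69 in WT, and Angpt2 at least 2.11 higher in HET. After quantile normalization no bound remained for any of them. Of the members with an unnormalized difference, 3 of 3 in HET and 2 of 2 in WT were at least 1 log2 unit higher at day 10. The shares of all genes with one were 65.6% higher and 4.69% lower in HET, and 75.7% higher and 2.7% lower in WT. Such a bound was kept only where it was positive, so a member could only count as higher or drop out, as Tie1 did in HET. The direction of the members' counts was thus fixed, and nothing is read from them. Total RNA of a callus mixes cell types, so fewer cells of a type and less RNA per cell cannot be told apart. From day 10 to day 14 the Tek density in HET was 1.02 times that of day 10, and in WT 0.700 times. Angpt1 at day 14 was 0.0925 times its day 10 density in HET and 0.496 times in WT, with normalized differences of -1.79 and -0.68. Angpt2 in HET differed by -0.53 or lower normalized and by -2.47 or lower without normalization. In WT the Angpt2 densities were 437 at day 10 and 496 at day 14, and those of Tie1 were 449 and 452, both close to the control spots. In HET 1 of 3 members with a normalized difference, Angpt1, was at least 1 log2 unit lower at day 14, against 16.7% of genes lower and 31.2% higher. In WT 0 of 4 were, against 10.4% lower and 11.7% higher. Without normalization 2 of 3 in HET were at least 1 lower, against 44.9% lower and 17.4% higher, and in WT 1 of 2 was, against 30.1% lower and 12.3% higher. In HET the Angpt2 bound could only count as lower, and in WT the normalized bounds of Angpt2 and Tie1 only as higher.

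A linear model in limma over the 6 arrays, with day as a block, called 0 of 96 genes (0%) for genotype at an adjusted p under 0.05, and 2 genes had an unadjusted p under 0.05, neither of them a member. The HET minus WT estimates, each with an adjusted p of 0.87 in limma, were 1.55 ± 0.79 for Angpt1, 0.90 ± 0.79 for Angpt2, -0.46 ± 0.45 for Tek and 0.63 ± 0.49 for Tie1 (standard error, 3 arrays per genotype). These means include the day 7 spots, all below background. For Angpt1 quantile normalization set the day 7 values at 12.07 on the array labelled HET and 8.54 in WT, a difference larger than at day 10, and without the day 7 arrays its estimate was 0.56. The model's 95% interval for Angpt1 ran from -0.44 to 3.54.

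The day 10 minus day 7 contrast of the same model, with genotype as a block, gave Tek 2.56 ± 0.55 log2 units (adjusted p = 0.021 in limma, and 0.078 without the day 14 arrays). It was the 1 of 4 members past the threshold, against 32.3% of the 96 genes, 17.7% higher and 14.6% lower. The day 7 spots of all 4 members were below background, and Tek entered the model through the later arrays, so no change is read from this value. With the day 7 arrays at their dimmest gene above background, the normalized lower bound for Tek was -2.26. A negative lower bound does not tell whether Tek rose on this scale. Angpt1 at 0.62 ± 0.96, Angpt2 at 0.31 ± 0.96 and Tie1 at -0.63 ± 0.59 did not pass on this scale. Quantile normalization across arrays with 9 to 12 genes above background at day 7 and 76 to 91 at day 10 removes the common change in brightness. Without it the bounds over both genotypes were at least 4.84 for Angpt1 and 4.09 for Tek. The day 14 minus day 10 contrast called 0 of 96 genes (0%), with 7 at an unadjusted p under 0.05, and the members were at -1.23 ± 0.96 for Angpt1, -1.36 ± 0.96 for Angpt2, -0.06 ± 0.55 for Tek and 0.52 ± 0.59 for Tie1.

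The genes whose normalized values ran most like each member's over the 6 arrays were named by Pearson's r, as a description in which the arrays share their overall brightness. For Angpt1 it was Ptn, which encodes the growth factor pleiotrophin, with r = 0.986 normalized and 0.987 unnormalized. Ptn had densities of 36382 in HET and 31932 in WT at day 10, and 6264 in HET and 8746 in WT at day 14, with the same order of genotypes as Angpt1 on both days. Ptn was picked for its likeness over these arrays, so the shared order adds nothing to r. All r values include the day 7 spots, which were below background for every member. Next were the growth factor gene Igf1 at 0.872 and Angpt2 at 0.789. For Tek they were the endothelial nitric oxide synthase gene Nos3 at 0.994, the VEGF receptor gene Flt1 at 0.989 and Tgfb3, a TGF-beta ligand gene, at 0.982. Flt1 was at the ceiling on 3 of the 4 later arrays. Besides Angpt1, the genes most like Angpt2, itself above background on 2 arrays, were Ptn at 0.758 and the ephrin gene Efna5 at 0.718. For Tie1, above background on 2 arrays, the highest were the transcription factor gene Ets1 at 0.778, the matrix gene Sparc at 0.756 and the co-receptor gene Tgfbr3 at 0.739. Between the members, r was -0.12 for Angpt1 and Tek normalized and 0.91 unnormalized, and the unnormalized values carry the brightness of each array.

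The list of endothelial markers had 5 of 8 genes with a normalized difference at day 10, and 0 reached 1 log2 unit in either direction, with a median of -0.15. Pecam1, an adhesion molecule of endothelial junctions, had 615 in HET and 2113 in WT, and Cdh5, the junction protein VE-cadherin, had 1781 in HET and 4936 in WT. Normalized, they differed by -0.15 and -0.08 and the VEGF receptor gene Kdr by 0.27, all within the spot spread of 0.28. Without normalization the 3 were at -1.90, -1.51 and -1.21, and Nos3 was at -2.32. Tek is itself among the 5, and their unnormalized median, -1.83, is the value of Tek, so it is no comparison for Tek. Flt1 was at the ceiling on both day 10 arrays. The other 5 markers, leaving out Tek, Tie1 and Flt1, summed to a density of 3800 in HET and 11726 in WT at day 10, and to 666 in HET and 5532 in WT at day 14. Flt1 had 42065 in HET and 49470 in WT at day 14, with WT at the ceiling, and would make up most of a sum that held it. The part of endothelial content in the Tek values was not tested.

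Markers of other cells were few on the membrane. Of 5 macrophage markers Cd36 and Msr1, both scavenger receptor genes, were present. At day 10 Cd36 had 6299 in HET and 4665 in WT and was 1.07 log2 units higher in HET after normalization, in the direction of Angpt1, and Msr1 was at 0.33. Their summed densities were 40179 in HET and 40820 in WT at day 10, and 14391 in HET and 8175 in WT at day 14. Of the blood cell markers only the platelet factor gene Cxcl4 was present, below background on all 3 HET arrays, and its day 10 difference was -1.08 or lower. The part of these cells in the values of the angiopoietins was not tested.

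Among Tie signalling genes and the integrins that bind angiopoietins, 4 of the 16 names listed were on the membrane. At day 10 the fibronectin receptor subunit gene Itga5 differed by -1.05 and Nos3, which acts downstream of Tek through Akt, by -0.48, and 1 of 3 with a difference was at least 1 lower. At day 14 Itgav, a vitronectin receptor subunit gene, differed by -0.98 or lower and Nos3 by -0.45. Of the VEGF ligands and receptors, 3 of 8 had a difference at day 10 with a median of 0.00. Vegfb, a ligand gene, was at -1.67 or lower and the receptor gene Kdr at 0.27, and Kdr was at -1.21 without normalization. Of the genes of mural cell recruitment, 6 of 6 had a difference, with a median of -0.03. The PDGF receptor gene Pdgfrb, a pericyte marker, was at -1.32, with 165 in HET and 873 in WT, and the sphingosine phosphate receptor gene Edg1 at 0.73, which turned to -0.55 without normalization. Of the ephrin list, 3 of 4 had a difference with a median of 0.36, and the receptor gene Ephb4 was at -0.57, with 572 in HET and 2436 in WT. Without normalization the day 10 medians were -2.32 for the Tie signalling list, -1.45 for VEGF, -1.74 for mural cell recruitment and -0.99 for the ephrins, whose direction turned. The genotype model called 0 genes in each of these lists.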

How the data were processed

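Callus RNA of 6 groups (HET and WT at days 7, 10 and 14) was measured on 6 angiogenesis arrays. The authors deposited linear intensity values, 1 average density per spot and no local background, per the file headers. Their deposited ratio table was checked against the densities: each filled value is the density less the array's lowest, over that of Actb, within a share of 0.001, on all 6 arrays. The sources used here do not name the scanner software. Of 2 files for HET at day 7, the one headed WT and equal to the WT file in 112 of 112 spots was left out.

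Densities were corrected by normexp with an offset of 25.9 (10% of the median gene spot over the 12 arrays of the series), taken to log2, averaged per gene and quantile normalized (limma 3.58.1, R 4.3.3). A bound sets the dim array to its dimmest gene above background or the gene's own value, whichever is higher. The limits on the Angpt2 to Angpt1 density ratio use the brightest control spot instead. A bound between 2 arrays was kept only where it pointed to the array above background, so the genes with a difference include bounds of fixed direction. A gene was at the ceiling at 45701, which is 90% of the highest density. The models used lmFit and eBayes, two-sided, with Benjamini-Hochberg adjustment over 96 genes above background on at least 1 array, and leave 2 residual degrees of freedom. The days are different time points and stand in for replicates in the genotype test. The genotypes do so in the day test. Precision is limited by the number of arrays. Named genes were the 4 members, for each the 3 genes of highest correlation among those above background on at least 2 arrays, and list members with the largest absolute difference. Members and lists were chosen with earlier results of these data known. Rnase4, Pecam1, Cdh5, Sparc, Spp1, Cd36, Msr1, Cxcl4, the sum over 5 endothelial markers and the ratio of Angpt1 to Tek were described after their values were seen. Alternatives were median, reference gene and no scaling, no background correction, an offset of 50, the authors' ratios, other thresholds and filters, and leaving out each day.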

Additional observations from a re-analysis of the deposited data

Results flagged for a closer look

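Without normalization the HET minus WT difference of Angpt1 had opposite directions at the 2 days on which it was above background in both genotypes, at 0.77 at day 10 and -1.60 at day 14 (log2). Opposite directions were also seen with reference gene scaling (1.18 and -1.68) and the authors' ratios (0.80 and -1.63). They were not seen with quantile normalization (1.11 and 0.00) or median scaling (2.39 and 1.28). The log2 ratio of Angpt1 to Tek densities likewise differed between HET and WT by 2.58 at day 10 and by -0.39 at day 14, while after quantile normalization both were positive, at 1.61 and 0.39. With 1 array per genotype and day, the difference between the days was not tested for either.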

How the results depend on the processing

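At day 10 the direction of HET minus WT was higher for Angpt1 and Angpt2 and lower for Tek under each scaling, background setting and set of ratios that gave a value, and at day 14 it depended on the scaling. With median scaling Angpt1 was at 2.39 and Tek at -0.22 at day 10, with a bound of 2.92 for Angpt2, and at day 14 Angpt1 was at 1.28, Tek turned to 1.64 and the members' median turned to 1.46, against -0.20 with quantile normalization. With reference gene scaling the bound of Angpt2 was 1.72 and Tek was at -1.42 at day 10, and at day 14 Angpt1 was at -1.68, Tek at -1.32 and the median at -1.20. Without normalization the values were 0.77, 1.31 and -1.83 for Angpt1, Angpt2 and Tek with a median of 0.77 at day 10, and -1.60 and -1.24 for Angpt1 and Tek with a median of -1.12 at day 14. The authors' ratios gave 0.80 for Angpt1 and -1.82 for Tek at day 10, and -1.63 and -1.25 at day 14. The bound on the HET minus WT difference in the Angpt2 to Angpt1 log2 ratio at day 10 was 0.97 after quantile normalization, 0.54 with median, reference gene or no scaling and 0.55 on the densities. The Angpt1 to Tek difference at day 14, at 0.39, turned to -0.36 under those 3 scalings and to -0.37 with the authors' ratios. The cause of these changes was not tested. No background correction and an offset of 50 moved no difference of HET and WT by more than the spot spread.

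By filled spots of the authors' matrix, 1 member was detected on the array labelled HET at day 7 (Angpt1), 3 in HET at day 10 and 2 in WT at day 14, and both angiopoietins on 1 array instead of 2. With 1 threshold for all arrays 3 members passed in HET at day 10 and 3 in WT at day 14. Tie1 passed on 0 arrays under either of these settings. With the second brightest control spot as the limit, chosen after seeing the data, 4 members passed in WT at day 10, and both angiopoietins on 3 arrays. In the models, 0 genes were called for genotype and 0 for day 14 minus day 10 under every alternative run. The count for day 10 minus day 7, 31, was 68 with reference gene scaling and 16 without the day 14 arrays, which leaves fewer residual degrees of freedom. The genotype estimate of Angpt2 turned to -0.23 with reference gene scaling and -0.24 without normalization, that of Tie1 to -0.58 and -0.59, and that of Tek to 0.45 with median scaling. For day 10 minus day 7, Tie1 turned to 2.92 with reference gene scaling and 2.02 without normalization, and for day 14 minus day 10 to -1.51 and -0.57, where Tek turned to 0.82 with median scaling. None of these turned values passed the test. For day 10 minus day 7, Angpt1 passed in limma under 3 of 9 alternatives. It was at 3.04 with median scaling (adjusted p = 0.012 in limma), 7.28 with reference gene scaling (0.00062) and 6.37 without normalization (0.021). Angpt2 passed with reference gene scaling, at 4.27 (adjusted p = 0.027 in limma), and Tek passed under 8 of 9 alternatives. The members' calls in this contrast thus depended on the scaling. No change from day 7 is read from these models for a member, since all its day 7 spots were below background.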
